A study of Homo sapiens with 4 samples.

Results

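Tubulins and the proteins that fold, bind and regulate them were followed in HeyA8-MDR cells after inhibition of a microRNA. The set of 39 genes was chosen by gene symbol: 5 alpha-tubulins, 9 beta-tubulins, 3 rarer tubulins, 6 genes of tubulin folding and tyrosination, 8 microtubule-associated proteins (MAPs) of the lattice, 3 stathmins and 5 plus-end proteins. Of these, 37 were measured, among 17687 distinct symbols, and each had 1 feature (1 summarised value per gene) on the array. TUBB3 and STMN1, encoding class III beta-tubulin and stathmin 1, had no named feature here. HeyA8-MDR is a multidrug-resistant human ovarian carcinoma line, kept here in RPMI medium with 15% fetal bovine serum, gentamicin sulfate and 300 ng/ml paclitaxel, so both groups carried the drug history. The control group (2 arrays, titled as cells only) and the miR204 group (2 arrays, titled miR204) were told apart by their titles; the design text gives a control inhibitor for the first and a miR-204-5p inhibitor for the second, although the label for treatment lists that second inhibitor for every array. The comparison asks which transcripts differ with the miR-204-5p inhibitor.

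Microtubules are hollow polymers of alpha- and beta-tubulin dimers that grow and shrink mainly at their plus ends. Paclitaxel binds beta-tubulin inside the polymer, stabilises it and blocks mitosis, and the isotype makeup of beta-tubulin and the levels of tau, MAP4 and stathmin have each been studied in taxane resistance. A microRNA inhibitor is an antisense oligonucleotide that blocks a mature microRNA, which otherwise lowers messenger RNAs that pair with its seed (bases 2 to 8). The inhibited microRNA is shown because its seed is what such pairing would rest on, and miR-211-5p because it has the same seed and 20 of 22 bases in common. Both sequences are from RefSeq (GRCh38.p14), 5′ to 3′, with the seed in capitals.
hsa-miR-204-5p: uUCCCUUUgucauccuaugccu
hsa-miR-211-5p: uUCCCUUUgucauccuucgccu
The level of miR-204-5p was not analysed here, and pairing sites in the transcripts were not searched.

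Each Clariom S array gave log2 expression values for 21448 features, with array medians from 5.59 to 5.68. The arrays correlated at 0.995 within the controls, 0.986 within the miR204 group and 0.984 to 0.989 between groups. Whether the replicates were grown as separate cultures is not stated, so p-values measure array-to-array spread that could be technical, and the number of arrays limits the precision. Of 12 ovarian carcinoma markers, the keratins KRT7, KRT8 and KRT18 were among the brightest 10% of features, whereas EPCAM, MSLN, CDH1 and FOLR1 had means within the dimmest 25% (below 3.965 log2 units). Of 6 mesenchymal markers, 5 were in the brightest 10%. Of 9 neuronal markers, relevant because several MAPs are best known from neurons, 0 were in the brightest 10% and 2 in the dimmest 25%; their summed log2 values were 42.06 and 42.32 in the controls against 40.96 and 42.15 in the miR204 arrays. Among the neuronal markers RBFOX3 had 7.63 and 7.53 against 6.85 and 6.91, while the list's median difference was 0. None of the markers of leukocytes (4), endothelial cells (4), platelets (4) or fibroblasts (4) was in the brightest 10%, and 1, 1, 2 and 1 of them were in the dimmest 25%. Some were not dim, such as the fibroblast marker COL1A2 (percentile 82.2) and the endothelial marker CDH5 (percentile 78.7). CDH5 had 8.13 and 8.06 in the controls against 7.01 and 7.03 in the miR204 arrays. ABCB1, the drug efflux pump that exports paclitaxel, had 7.68 and 7.77 in the controls against 7.67 and 7.55 in the miR204 arrays, ranges that nearly touched.

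Most tubulin and MAP genes had slightly lower values in the miR204 arrays, but none passed the threshold. Of the 37, 32 were lower and 5 higher (27 and 10 after quantile normalization, 30 and 7 with equal array medians, 25 and 12 after cyclic loess), with a median log2 difference (miR204 minus control) of -0.20, against -0.07 over all features. The share lower was 86.5% of members against 59.2% of all features, and 73.0% against 50.5% after quantile normalization. No member reached an adjusted p of 0.05 in limma, a moderated linear model (Benjamini-Hochberg over all features; 0.0513% of all features were called); the lowest adjusted p was 0.19, for TBCE. At an unadjusted p under 0.05, 6 members were lower (TUBB, TUBB2A, TUBB6, TUBB8, TBCE and MAP4), or 16.2%, near the 12.8% of all features, and 1, MAP1A, was higher, or 2.70% against 5.11%. All 7 differences had the same sign in each of the 4 fits without 1 array. That had to be so, because the groups of these 7 did not overlap, and it is no separate evidence. Counts at that p are not given for these fits, since each leaves 1 array in a group. The groups did not overlap for 24 members that were lower, or 64.9% against 33.8% of all features, and for 1 that was higher (background 16.5%). For 22 members, or 59.5% against 37.2% of all features, the difference exceeded both gaps between replicates. The largest difference in size was 0.595, and the median half-width of the members' 95% intervals was 0.354, so a difference below that size lay within the uncertainty of a typical member. In such bulk samples fewer cells of a type and less RNA per cell cannot be told apart.

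**Figure D1:**
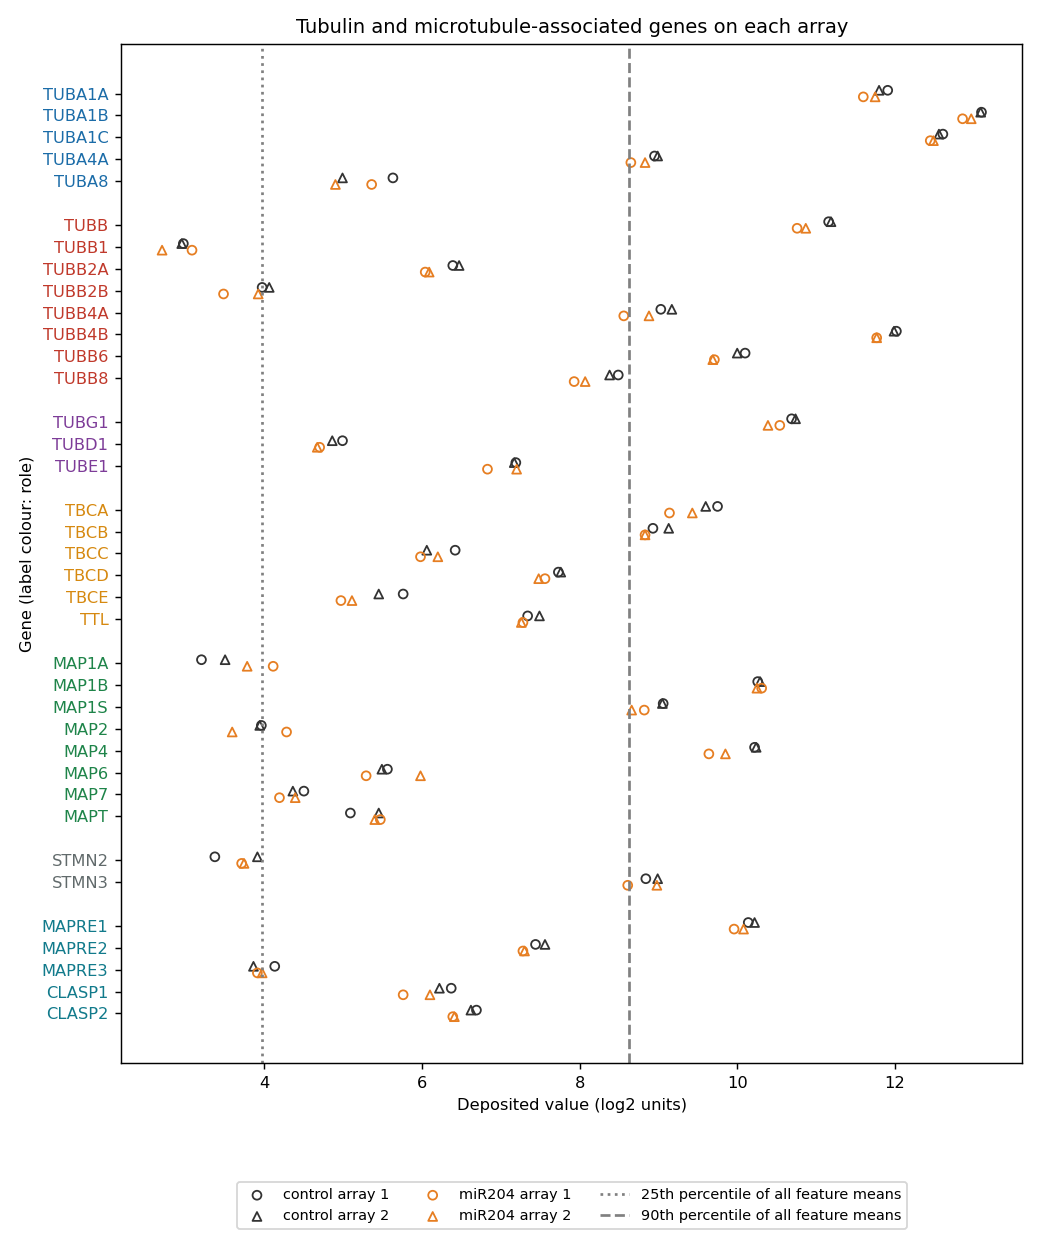
Deposited log2 value (x axis) of each of the 37 measured genes (y axis, label colour by role) on the 2 control arrays (grey) and the 2 miR204 arrays (orange); lines mark the 25th and 90th percentiles of all feature means. The miR204 points lie left of the control points, without overlap, for 24 genes and right of them for 1, and 16 genes lie at or beyond the 90th percentile.

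Across all features the lower values went with brightness. A value of a feature depends on its probes as well as on its transcript, so brightness is given as a rank among features and sets no transcript's abundance against another's. Of the members, 16 were at or above the 90th percentile of mean value (8.63 log2 units), among them TUBA1A, TUBA1B, TUBA1C, TUBB, TUBB4B and TUBG1 above the 98th. Across all 2148 features that bright the median difference was -0.215 and 84.8% were lower; for the 16 members the median was -0.23 and 15 were lower, all but MAP1B. In that range the groups did not overlap, with lower miR204 values, for 14 of the 16 members (87.5%) against 68.9% of all features, and an unadjusted p under 0.05 was reached by 3 of the 16 (18.8%) against 22.9%. Below the 90th percentile the 21 other members had a median of -0.165, against -0.05 for all features there, so the less bright members were lower too. The dimmest 10% of all features had a median difference of 0.08. After quantile normalization of the deposited values, which gives every array the same distribution, the 2148 bright features had a median of -0.02 and the bright members one of -0.05. The member median over all 37 then was -0.06 against 0.00 over all features. In those values 10 members were lower without overlap, or 27.0% against 23.9% of all features, and 3 higher, or 8.11% against 22.7%. Only TBCE was lower (2.70% against 7.10%) and MAP1A higher (2.70% against 6.57%) at an unadjusted p under 0.05.

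**Figure D2:**
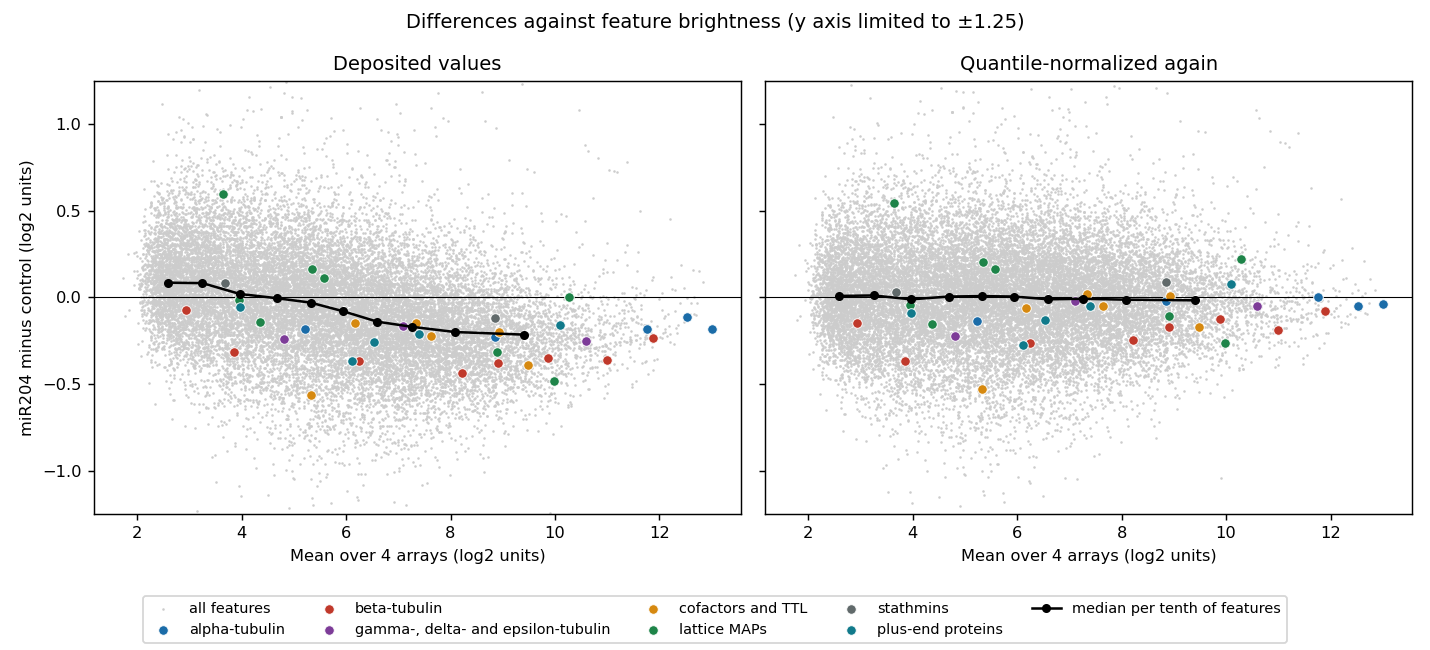
Difference between groups (y axis, log2 units, miR204 minus control) against the mean over the 4 arrays (x axis, log2 units) for all features (grey) and the 37 genes (coloured by role), for the deposited values (left) and after quantile normalization (right); the black line joins the medians of 10 equal brightness classes of all features. On the left the line falls from 0.08 in the dimmest class to -0.215 in the brightest, and on the right it stays near 0.

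All 5 alpha-tubulins were lower, against 59.2% of all features, with differences from -0.23 to -0.115, and 0 had an unadjusted p under 0.05. TUBA1B, a main isotype of dividing cells, was the brightest of all 21448 features, at 13.10 and 13.09 in the controls against 12.86 and 12.97 in the miR204 arrays. TUBA1A, known from the developing brain, had 11.91 and 11.80 against 11.60 and 11.75. TUBA1C, another widely expressed isotype, had 12.61 and 12.56 against 12.45 and 12.49. In all 3 the miR204 values lay just below the controls, without overlap. Their differences were -0.18 (SE 0.142) for TUBA1B, -0.18 (SE 0.147) for TUBA1A and -0.115 (SE 0.14) for TUBA1C, with adjusted p-values of 0.54, 0.55 and 0.69. After quantile normalization they were -0.04, 0.00 and -0.05, and cyclic loess turned all 3 slightly positive (0.01, 0.03 and 0.08). No value on any array was above that of TUBA1B, and quantile normalization gives the top rank the same value on every array. Its small difference there was therefore set by the method and says nothing about its transcript. These 3 genes lie close together in the genome and encode nearly the same protein, so the probes may not separate them. TUBA4A, which encodes an alpha-tubulin without the usual last tyrosine, had a difference of -0.23 (SE 0.147, adjusted p = 0.45). TUBA8, a more divergent isotype, gave 5.63 and 4.99 in the controls against 5.36 and 4.90 in the miR204 arrays, so the groups overlapped and its replicates were 0.64 apart in the controls.

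The beta-tubulins, which carry the paclitaxel site, had the lowest median of the role groups. All 8 were lower, with a median difference of -0.355 (range -0.435 to -0.07), 7 of them without overlap between groups, and 4 had an unadjusted p under 0.05. Over all features 59.2% were lower, 33.8% lower without overlap and 12.8% lower at that p. After quantile normalization all 8 were lower, with a median of -0.18, but 0 had an unadjusted p under 0.05, against 7.10% of all features. TUBB, the main class I isotype, gave 11.16 and 11.19 in control cells against 10.76 and 10.87. Both miR204 arrays lay below both controls by more than the replicate gaps. The controls were 1.28-fold higher on the linear scale (log2 difference -0.36, SE 0.142, 95% interval -0.698 to -0.0223, limma adjusted p = 0.26). TUBB2A had 6.39 and 6.47 against 6.04 and 6.09, a difference of -0.365 (SE 0.141, adjusted p = 0.25). TUBB6, the class V isotype, had 10.10 and 10 against 9.71 and 9.69, a difference of -0.35 (SE 0.141, adjusted p = 0.27). In both genes the groups were apart by several times the gap between replicates of the miR204 group. TUBB8, an isotype known from oocytes that has near-identical copies elsewhere in the genome, had 8.49 and 8.38 against 7.93 and 8.07, a difference of -0.435 (SE 0.147, adjusted p = 0.22). Its copies make its assignment uncertain. After quantile normalization these 4 differences were -0.19, -0.26, -0.12 and -0.25, in the order TUBB, TUBB2A, TUBB6 and TUBB8, with unadjusted p-values of 0.18, 0.082, 0.40 and 0.12.

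Among the other beta isotypes, TUBB4B, the class IVb isotype, was bright, with 12.02 and 11.99 in the controls and 11.77 on both miR204 arrays (difference -0.235, SE 0.139, adjusted p = 0.41). TUBB4A, best known from brain, had 9.03 and 9.17 against 8.56 and 8.88 (difference -0.38, SE 0.168, adjusted p = 0.30). TUBB2B, the near-identical neighbour of TUBB2A, was dim at 3.97 and 4.06 against 3.48 and 3.92, so that a level above background was not established for it. TUBB1, the isotype of platelets and their precursors, ranked in the dimmest 25% with values between 2.70 and 3.08 that overlapped between groups. When limma's prior variance was allowed to follow brightness, 4 members passed an adjusted p of 0.05, all lower: TUBB (0.021), TUBB6 (0.036), TUBB8 (0.040) and MAP4 (0.012). That setting called 6.09% of all features as lower and 10.8% of the members, and 1.02% of all features and 0 members as higher. With quantile normalization and that prior together 0 members passed.

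Promoters were read from RefSeq (GRCh38.p14, 250 bases before to 50 after each start) to show what the genes of the set, tubulins and others, share in sequence. In all, 34 of the 37 genes matched, with 54 starts; MAP6, MAPT and STMN2 had no entry. The motif CCAAT, on either strand, was found at 23 of the 54 member starts (42.6%) against 34.6% of all 35116 starts, GGGCGG at 63.0% against 45.0%, TATAA at 16.7% against 20.4% and TTTGAA at 20.4% against 15.2%. Matches of different motifs shared letters at 0 of the 54 member starts and at 0.718% of all starts, and a match is only a run of letters. The 250 bases before the first listed start are shown for TUBB4B, the beta-tubulin with the most CCAAT copies at that start, and for TUBB, TUBB6, TUBB8 and MAP4, the 4 members that passed with the brightness-dependent prior. CCAAT, or ATTGG where it lies on the other strand, is in capitals. TUBB4B lies at chr9:137241037-137241286 (plus strand), TUBB at chr6:30720102-30720351 (plus strand), TUBB6 at chr18:12307419-12307668 (plus strand), TUBB8 at chr10:49297-49546 (minus strand) and MAP4 at chr3:48088849-48089098 (minus strand).
TUBB4B: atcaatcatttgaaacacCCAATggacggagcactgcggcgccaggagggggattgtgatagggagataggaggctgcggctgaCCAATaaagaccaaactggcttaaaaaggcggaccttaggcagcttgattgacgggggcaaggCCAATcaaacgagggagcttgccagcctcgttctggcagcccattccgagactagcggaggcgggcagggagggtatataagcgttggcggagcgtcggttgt
TUBB: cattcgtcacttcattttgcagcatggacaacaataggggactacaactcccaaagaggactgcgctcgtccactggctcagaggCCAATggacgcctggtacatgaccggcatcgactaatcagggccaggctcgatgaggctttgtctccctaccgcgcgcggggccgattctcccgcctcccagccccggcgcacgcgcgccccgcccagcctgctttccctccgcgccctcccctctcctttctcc
TUBB6: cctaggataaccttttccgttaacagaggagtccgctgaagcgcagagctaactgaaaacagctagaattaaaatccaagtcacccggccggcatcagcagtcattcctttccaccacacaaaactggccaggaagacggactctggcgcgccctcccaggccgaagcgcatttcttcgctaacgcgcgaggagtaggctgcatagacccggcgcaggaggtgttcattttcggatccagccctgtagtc
TUBB8: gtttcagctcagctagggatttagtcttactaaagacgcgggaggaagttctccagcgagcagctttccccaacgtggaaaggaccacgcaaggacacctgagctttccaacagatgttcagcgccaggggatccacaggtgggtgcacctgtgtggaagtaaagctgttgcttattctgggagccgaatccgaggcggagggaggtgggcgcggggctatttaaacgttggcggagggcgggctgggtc
MAP4: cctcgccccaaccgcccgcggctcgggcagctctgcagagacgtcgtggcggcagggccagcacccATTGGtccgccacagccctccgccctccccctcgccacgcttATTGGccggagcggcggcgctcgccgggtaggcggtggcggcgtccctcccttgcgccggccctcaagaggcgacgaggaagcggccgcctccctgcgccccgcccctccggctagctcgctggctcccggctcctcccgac
TUBB4B held 3 copies, MAP4 2, TUBB 1 and TUBB6 and TUBB8 0, while the first-start promoters of TUBA1B and TUBB2A held 0 CCAAT but 3 and 5 GGGCGG. Of these genes TUBB, TUBB6, TUBB8, MAP4 and TUBB2A had an unadjusted p under 0.05 in limma and TUBB4B and TUBA1B did not. TUBB6 had CCAAT at 1 of its 2 starts, though not at the first. Several of these genes were picked by their results in these data, and a link between CCAAT and the differences was not tested.

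The rarer tubulins were also slightly lower. TUBG1, the gamma-tubulin that nucleates microtubules at the centrosome, had 10.69 and 10.74 in the controls against 10.54 and 10.39 in the miR204 arrays. That is a difference of -0.25 (SE 0.145, adjusted p = 0.41), or -0.05 after quantile normalization. TUBD1 and TUBE1, the delta- and epsilon-tubulins needed for the triplet walls of centrioles, had differences of -0.24 (SE 0.143) and -0.165 (SE 0.171). TUBE1 overlapped between groups, since miR204 array 2 gave 7.20 against 7.19 and 7.17 in the controls.

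Newly made tubulin passes through the cofactors TBCA to TBCE, which hold beta-tubulin (TBCA, TBCD) or alpha-tubulin (TBCB, TBCE) and join them to a dimer with the help of TBCC. All 5 were lower on the deposited values, TBCB not after quantile normalization (0.01), and TBCE had the largest difference. TBCE gave 5.76 and 5.45 in control cells against 4.97 and 5.11, a level near the middle of all features. The groups did not overlap, and the gap between them exceeded the 0.31 between the controls. The controls were 1.48-fold higher (log2 difference -0.565, SE 0.166, 95% interval -0.961 to -0.169, limma adjusted p = 0.19), and the difference hardly moved after quantile normalization (-0.53, unadjusted p = 0.019). Of the 37 genes 7 overlap another protein-coding gene in the RefSeq annotation: TBCE overlaps B3GALNT2, TUBB6 overlaps AFG3L2 and TUBB4B overlaps CIMIP2A, and TUBA4A, TUBB1, TBCD and MAPT are the others. Whether the probes separate such pairs was not tested. TBCA had 9.75 and 9.60 against 9.14 and 9.43, a difference of -0.39 (SE 0.164, adjusted p = 0.28). TBCB, TBCC and TBCD differed by -0.20, -0.15 and -0.225 with adjusted p from 0.44 to 0.69. TTL, the ligase that puts the last tyrosine back on alpha-tubulin, differed by -0.145 (SE 0.144, adjusted p = 0.63). After quantile normalization TTL was at 0.02, so the direction of TBCB and TTL depended on the scaling.

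MAPs of the lattice went both ways, with 4 lower and 4 higher and a median of -0.01. MAP4, the main MAP outside neurons, had 10.22 and 10.24 in the controls against 9.64 and 9.85 in the miR204 arrays. Both miR204 values lay well below the controls, which were only 0.02 apart. The controls were 1.4-fold higher (log2 difference -0.485, SE 0.15, 95% interval -0.842 to -0.128, limma adjusted p = 0.20). After quantile normalization it was -0.26 (unadjusted p = 0.089). MAP1S, a short, widely expressed relative of MAP1A and MAP1B, had 9.06 and 9.05 against 8.82 and 8.66 (difference -0.315, SE 0.145, adjusted p = 0.31). MAP1B, known from growing axons, had 10.26 and 10.29 against 10.31 and 10.25. Its difference was 0.01 (95% interval -0.327 to 0.337), and after quantile normalization it was 0.22 (unadjusted p = 0.15).

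MAP1A, which binds the lattice in mature neurons, was the member with the largest higher value. It had 3.20 and 3.50 in the controls against 4.11 and 3.78 in the miR204 arrays. The groups did not overlap, but the control mean of 3.35 and the miR204 mean of 3.945 both lay within the dimmest 25% of features. The difference was 0.595 (SE 0.184, 95% interval 0.157 to 1.03, limma adjusted p = 0.20), and 0.55 after quantile normalization. No detection calls were used, so a level above background was not established for this gene. MAPT, the gene of tau, had 5.09 and 5.45 against 5.47 and 5.40, overlapping between groups (difference 0.165, SE 0.171, 95% interval -0.241 to 0.571, adjusted p = 0.64). MAP2, the dendritic MAP, and MAP6, which makes microtubules resist cold, differed by -0.02 and 0.11, and their miR204 replicates were 0.69 apart in each case. MAP7, which recruits kinesin-1, differed by -0.14 (SE 0.154).

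Stathmins sequester tubulin dimers and promote shrinkage of microtubules. STMN3 had 8.84 and 8.99 in the controls against 8.61 and 8.98 in the miR204 arrays, so the groups overlapped (difference -0.12, SE 0.176, adjusted p = 0.75), and it was 0.09 after quantile normalization. STMN2, a neuronal stathmin, was dim, with values between 3.37 and 3.91 and a difference of 0.08 (SE 0.202, adjusted p = 0.85). Its control values spanned its miR204 values.

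Plus-end proteins ride on or steady growing ends. MAPRE1, encoding the end-binding protein EB1 that recruits most of the others, had 10.14 and 10.22 in the controls against 9.96 and 10.08 in the miR204 arrays. Its groups did not overlap, with a difference of -0.16 (SE 0.144, adjusted p = 0.59) that became 0.08 after quantile normalization. MAPRE2 and MAPRE3, its relatives EB2 and EB3, differed by -0.21 (SE 0.142) and -0.055 (SE 0.158). CLASP1 and CLASP2 promote renewed growth of shrinking microtubules. CLASP1 had 6.37 and 6.22 against 5.76 and 6.10 (difference -0.365, SE 0.171, adjusted p = 0.32), and CLASP2 had 6.69 and 6.62 against 6.39 and 6.41 (difference -0.255, SE 0.14, adjusted p = 0.38). Both CLASP genes were lower without overlap, as were 33.8% of all features. After quantile normalization they were at -0.28 and -0.13, with unadjusted limma p-values of 0.15 and 0.35.

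**Figure D3:**
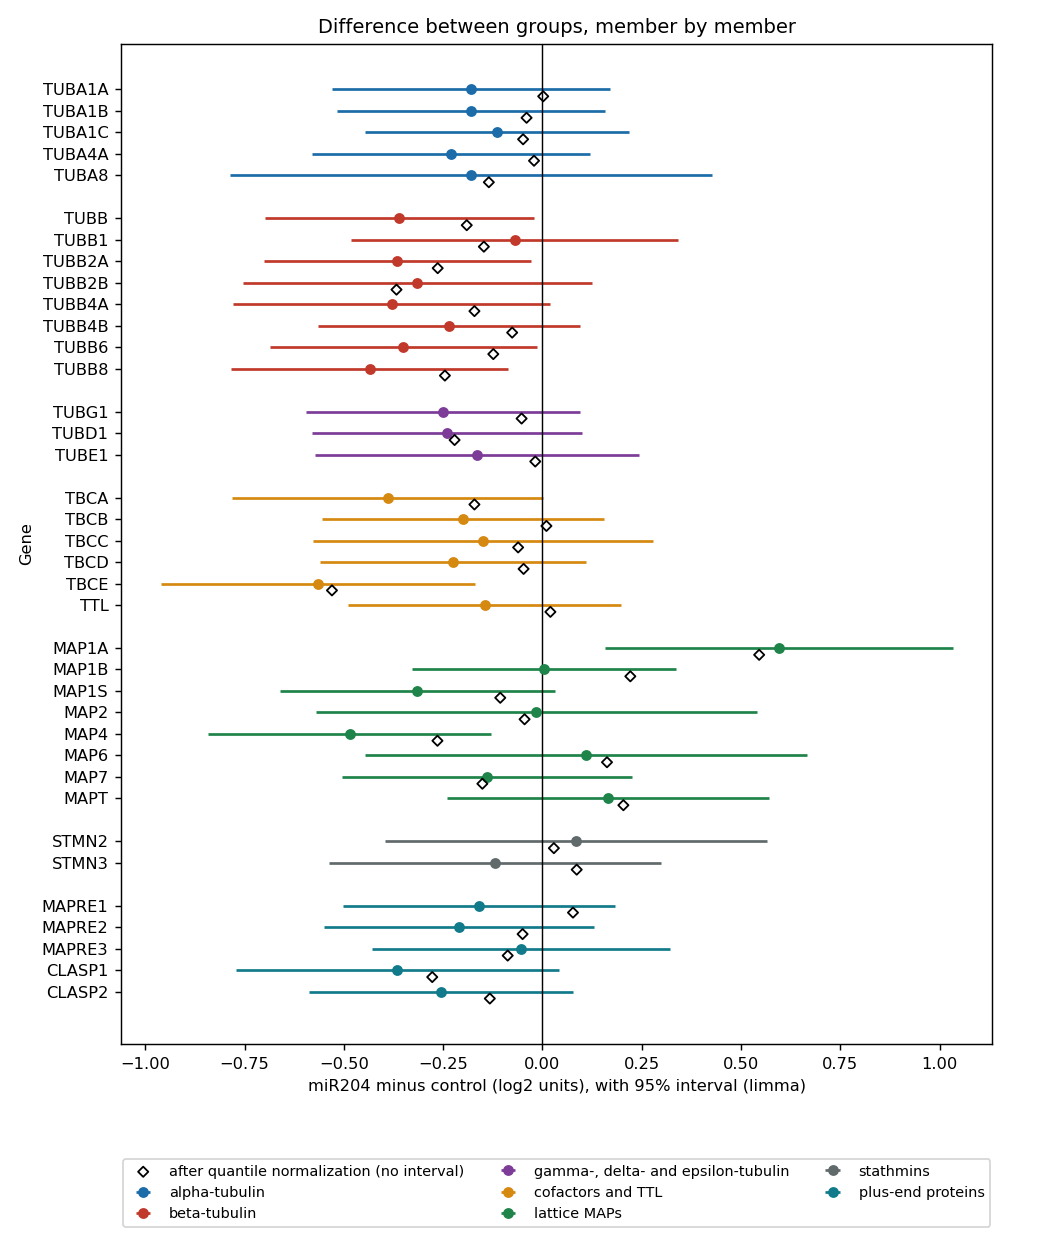
Difference between groups (x axis, log2 units, miR204 minus control) for each of the 37 genes (y axis), with filled points and 95% intervals from limma on the deposited values and open diamonds for the same difference after quantile normalization. The intervals of 7 genes leave out 0, and most diamonds lie nearer to 0 than the filled points.

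The wider microtubule system, 120 measured genes in 7 lists, was lower for 92 genes and higher for 28 (77 and 43 after quantile normalization), with a median of -0.18 (-0.095 after it). Of all features 59.2% were lower, and 50.5% after quantile normalization. None passed an adjusted p of 0.05 in limma, and at an unadjusted p under 0.05 29 genes (24.2%) were lower, against 12.8% of all features, and 4 (3.33%) higher, against 5.11%. After quantile normalization 11 (9.17%) were lower at that level, against 7.10% of all features, and 5 (4.17%) higher, against 6.57%, so both shares were near the background. These all-feature shares are also the background of each list's counts. The count of 33 genes became 9 without control array 1, 6 without control array 2, 27 without miR204 array 1 and 44 without miR204 array 2.

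Nucleation factors had the lowest median of these lists. All 14 were lower (13 after quantile normalization; median -0.365, then -0.22), against 59.2% of all features on the deposited values. At an unadjusted p under 0.05 6 (42.9%) were lower, against 12.8% of all features, and 3 (21.4%) after quantile normalization, against 7.10%. HAUS2 and HAUS1, subunits of the augmin complex that branches new microtubules off old ones in the spindle, had differences of -0.875 (SE 0.144, adjusted p = 0.12) and -0.745 (SE 0.151, adjusted p = 0.14). HAUS2 gave 6.20 and 6.25 in the controls against 5.28 and 5.42, far outside the replicate gaps. TPX2, a spindle assembly factor, differed by -0.60 (SE 0.175). Tubulin chaperones other than the cofactors, the CCT ring and prefoldin with ARL2, were lower for 14 of 15 genes (median -0.33; 10 of 15 after quantile normalization). At an unadjusted p under 0.05 5 of them (33.3%) were lower, with the prefoldin subunit PFDN1 at -0.445, the GTPase ARL2 at -0.47 and the ring subunit CCT4 at -0.42; after quantile normalization 0 were, and the median was -0.135.

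Tubulin-modifying enzymes were mixed, 17 lower and 9 higher (14 and 12 after quantile normalization), with 3 lower and 1 higher at an unadjusted p under 0.05 (2 and 1 after it). SVBP, the partner that vasohibins need to remove the last tyrosine of alpha-tubulin, gave 5.73 and 5.98 in the controls against 4.84 and 4.94, so the controls were 1.95-fold higher (log2 difference -0.965, SE 0.157, limma adjusted p = 0.12). That difference remained -0.92 after quantile normalization. AGTPBP1, which trims glutamate chains from tubulin, differed by -0.50 and TTLL3, which adds glycine, by 0.45. Severing and minus-end genes were all lower (10 of 10, median -0.175; 7 of 10 after quantile normalization), with 2 at an unadjusted p under 0.05 (0 after it), FIGNL1 (-0.82) and CAMSAP1 (-0.54), while the severing enzyme SPAST was at -0.345. FIGNL1 rested largely on miR204 array 1, at 5.80 against 6.65 on array 2.

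The other plus-end genes were lower for 11 of 16 (9 after quantile normalization; median -0.15), 4 lower and 1 higher at an unadjusted p under 0.05 (3 and 1 after it). PSRC1 had -1.035 and the depolymerising kinesin KIF2C -0.555, and NCKAP5 had 0.645 from control values of 3.74 and 3.98 that lay near the dimmest 25%. Other lattice-binding proteins were lower for 22 of 34 (20 after quantile normalization; median -0.11), 8 lower and 2 higher at that level (2 and 3 after it), including the midzone bundler PRC1 (-0.475), JPT1 (-0.435) and the doublecortin-like kinase DCLK2 (0.665, dim in the controls at 3.46 and 3.71). Of the tubulin isotypes outside the set 5 were measured and 4 were lower, with TUBA3D, an alpha-tubulin with close copies, at -0.415, TUBG2, the second gamma-tubulin gene, at -0.33 and TUBA3C at -0.15.

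Proliferation markers had lower values as well. All 15 were lower, also after quantile normalization (median -0.51, then -0.32), 12 of them (80.0%, against 12.8% of all features) at an unadjusted p under 0.05 and 0 at an adjusted p of 0.05. After quantile normalization 6 (40.0%, against 7.10%) had an unadjusted p under 0.05. With the brightness-dependent prior 11 (73.3%, against 6.09%) passed an adjusted p of 0.05. The list's summed log2 values were 140.55 and 141.70 in the controls against 132.76 and 134.39 in the miR204 arrays. Its median log2 value was between 9.11 and 9.74 on each array, above the 90th percentile of feature means (8.63). Of all features that bright, 22.9% were lower at an unadjusted p under 0.05 in limma on the deposited values, a closer background than 12.8%. No such share is given for the brightness-dependent prior. CCNB1, the mitotic cyclin, was at -0.77, RRM2, which supplies deoxynucleotides, at -0.59 and BUB1, a spindle checkpoint kinase, at -0.815. Several genes of the wider lists, such as TPX2, KIF2C and PRC1, act in the mitotic spindle. The part of proliferation in the lower tubulin and spindle gene values was not tested.

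**Figure D4:**
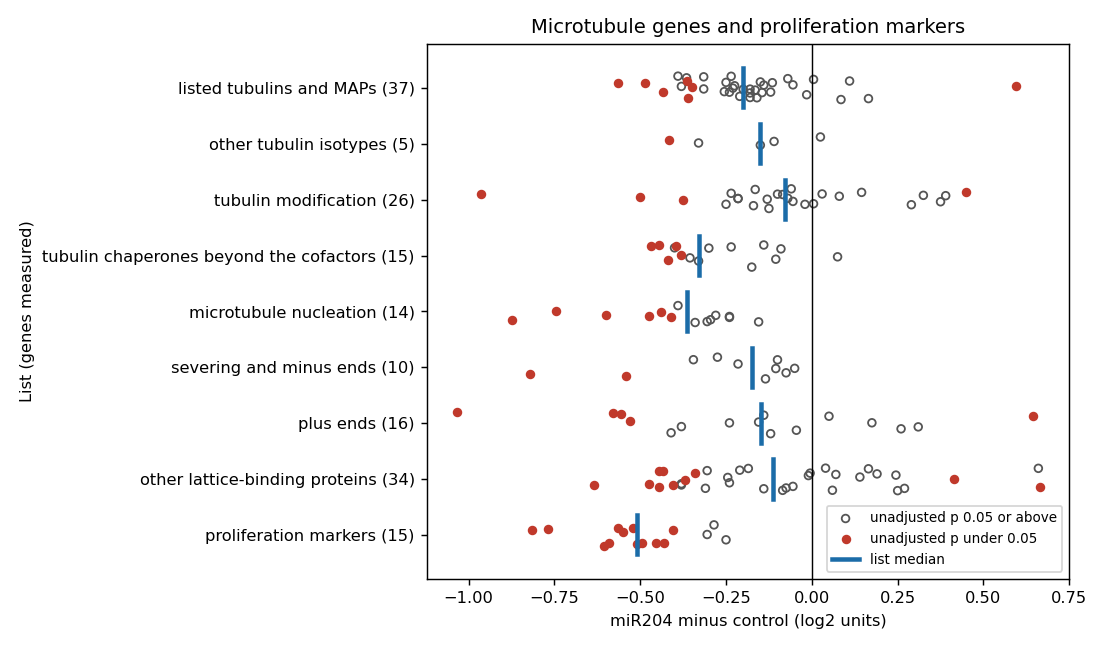
Difference between groups (x axis, log2 units, miR204 minus control) for every measured gene of the 37-gene set, the 7 wider microtubule lists and the proliferation markers (y axis, number measured in brackets); filled points have an unadjusted p under 0.05 in limma and blue bars are list medians. The bars lie at -0.20 for the 37 genes, -0.365 for nucleation and -0.51 for proliferation markers.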

How the data were processed

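RNA of 4 HeyA8-MDR samples was measured on Clariom S arrays. The deposited values are log2 expression values made by the authors with RMA, per the submitters' processing notes, which also name Transcriptome Analysis Console 4.0; RMA parameters and the genome build are not given in the sources used here, so gene coordinates are printed only with RefSeq sequences. Symbols came from the platform annotation. The brightest feature stood for a symbol, though each measured member had 1.

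The miR204 and control arrays were compared on these values in R 4.3.3 with limma 3.58.1 (lmFit, eBayes; 2 residual and 4.78 prior degrees of freedom), with Benjamini-Hochberg adjustment over all 21448 features and a threshold of 0.05. Simulated data used to test the fit were drawn from its own variance model. They held no shift with brightness, so they do not show how the fit handles one. An exact permutation of 2 against 2 arrays cannot give a p below 0.333, so none was run. The members, the lists and the settings were chosen with earlier results of these data known. All members were named, and of each wider list the 3 genes with the largest moderated statistic. Quantile normalization, equal medians, cyclic loess, prior settings, brightness filters, a replicate block and leaving out arrays were tried.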

Additional observations from a re-analysis of the deposited data

How the results depend on the processing

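The number of members past an adjusted p of 0.05 was 0 in the reported fit and in all other settings except the intensity trend, where it was 4; fits without 1 array have fewer degrees of freedom. The 4 with the trend were 10.8% of the members, all lower, against 6.09% of all features. The number at an unadjusted p under 0.05 (7, of which 6 lower and 1 higher) was 14 (13 lower) with the intensity trend, 4 (3 lower) with equal array medians, and 2 (1 lower) after either quantile normalization or cyclic loess. Quantile normalization gave 2.70% of members in each direction, against 7.10% of all features lower and 6.57% higher. All-feature shares at that p are not given for the trend, equal medians, loess and the replicate block. Member counts in those settings therefore have no background and cannot be read as an excess or a lack. With quantile normalization and the trend together 2 members were higher, and 0 were when features below the 25th percentile or below the median were left out, which removes MAP1A. Leaving out 1 array gave 0 to 11 members (0 to 10 lower, 0 to 1 higher). The member median of -0.20 was -0.061 after quantile normalization, with or without the trend, -0.135 with equal medians, -0.044 after cyclic loess, and -0.235 to -0.20 without 1 array.

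Wider list genes past an adjusted p of 0.05 numbered 17 with the trend, 5 with quantile normalization and trend, 5 over features above the median and 0 in the other settings. At an unadjusted p under 0.05 they numbered 18 after cyclic loess, 16 after quantile normalization and 6 to 44 without 1 array, against 33.

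Differences of small size changed sign, and none of these members was called in either fit. After quantile normalization, with or without the trend, TUBA1A was at 0.0019, TBCB at 0.01, TTL at 0.02, STMN3 at 0.086 and MAPRE1 at 0.077. After cyclic loess TUBA1A was at 0.027, TUBA1B at 0.013, TUBA1C at 0.084, TBCB at 0.013, TTL at 0.028, STMN3 at 0.092 and MAPRE1 at 0.054. With equal medians MAP2 was at 0.05 and MAPRE3 at 0.01. Without 1 array the ranges were -0.50 to 0.14 for TUBA8, -0.26 to 0.12 for TUBB1, -0.35 to 0.02 for TUBE1, -0.33 to 0.03 for TBCC, -0.025 to 0.035 for MAP1B, -0.36 to 0.33 for MAP2, -0.235 to 0.455 for MAP6, -0.015 to 0.345 for MAPT, -0.185 to 0.355 for STMN2, -0.305 to 0.065 for STMN3 and -0.19 to 0.08 for MAPRE3. The cause of these changes was not tested.

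Same-numbered arrays did not deviate together (correlation 0.0058 over all features), so the numbers were not taken to pair them; with the replicate number as a block 4 members (3 lower) had an unadjusted p under 0.05 and 0 an adjusted p under 0.05. Averaging features per symbol changed nothing, as each member had 1. Dim features could not be told from undetected ones.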
